A study of Arabidopsis thaliana with 18 samples.

Results

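The comparison described is that of submerged with air-kept leaves of ein3eil1, an Arabidopsis thaliana line mutated in both EIN3 and EIL1. Members were the genes with at least 1 TPM (a transcript level scaled for gene length and library total) in at least 3 of the 6 ein3eil1 libraries, which kept 19248 of 32833 listed genes. Plants were 4 weeks old, and messenger RNA of leaves was sequenced after 6 hours of submergence or in air, with 3 libraries of submerged ein3eil1, 3 of ein3eil1 in air, 3 of submerged wild type and 3 of wild type in air used here. Where all 18 libraries of the series are fitted, libraries of the phyA-211 mutant, submerged and in air, are added. The titles mark every library as mock and do not say for which treatment. The labels give neither the ein3 and eil1 alleles nor the origin of the replicates, so p-values cover only how these libraries vary, which may be technical. The membership rule used levels but not the contrast. Of the members, 1397 reached 1 TPM in exactly 3 libraries, with a median third-highest value of 1.78 TPM, and 337 of these did so in the 3 submerged libraries only and 832 in the 3 air libraries only. Another 799 genes reached 1 TPM in exactly 2 libraries, with a median third-highest value of 0.71 TPM, and stayed outside. The same rule applied to the 6 wild-type libraries kept 18129 genes, of which 17866 were shared.

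Arabidopsis leaves under water lose access to oxygen from air, and gaseous ethylene collects in the tissue. Group VII ethylene response factors (ERF-VII) are degraded in air through oxidation of an N-terminal cysteine by plant cysteine oxidases, and in low oxygen they accumulate and switch on fermentation and other hypoxia genes. EIN3 and EIL1 are transcription factors at the end of the ethylene signalling chain, downstream of the receptors, the kinase CTR1 and the membrane protein EIN2, and the F-box proteins EBF1 and EBF2 target them for degradation.

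Each ein3eil1 library listed between 22324 and 23189 genes above 0. Replicate libraries varied by a median SD over genes of 0.22 in submerged and 0.15 in air ein3eil1, on the scale of log2(TPM + 1), counted for each group over genes with a mean of at least 1 TPM. The same figure was 0.09 in submerged wild type and 0.17 in air wild type. It was 0.39 in submerged and 0.27 in air phyA-211, which entered only the fits over all 18 libraries. Among genes with a mean of at least 500 TPM, replicates of submerged wild type had a median coefficient of variation of 2.79%, against 16.9%, 10.2% and 10.6% in submerged ein3eil1, air ein3eil1 and air wild type. TPM keep no depth, so whether the submerged wild-type libraries differ by more than sampling noise could not be tested, and counts of differences from wild type are also given with these 3 libraries averaged and counted as 1 sample. The most abundant genes in each group included the leaf genes PSBR, RBCS1A and CAB1. There were 2 ein3eil1 libraries that stood apart, which are named beside the results they touch: submerged replicate 2 had the lowest PSBR, RBCS1A and CAB1 of its group, and air replicate 1 had the highest values of most hypoxia genes in air.

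Submergence changed the level of about as many ein3eil1 genes as it left uncalled. A gene was called where limma gave an adjusted p under 0.05 in the same direction both on the deposited TPM scale and after median-ratio scaling. By this rule 3607 genes (18.7%) rose and 6050 genes (31.4%) fell, 50.2% of all members. The genes called higher made up 48.0% ± 1.73 of all TPM in submerged ein3eil1 and 14.3% ± 0.52 in air ein3eil1 (SD, n = 3), and the genes called lower 8.77% ± 0.49 and between 29.2% and 30.5%. Every submerged value lay above every air value for 3937 genes (20.5%) and below for 10495 genes (54.5%). The median log2 difference over all members was -0.51 on the deposited scale and -0.01 after median-ratio scaling, which assumes that the typical gene does not change. Because TPM are shares of a fixed total, a fall of most genes and a gain of the others cannot be told apart, and a call therefore had to pass on both scales. On the deposited scale alone 3607 genes were higher and 9996 (51.9%) lower, on the median-ratio scale alone 6328 (32.9%) higher and 6050 lower, and after quantile normalisation 5357 higher and 6926 lower. Changes of at least 4-fold were found in 987 called rises and 1216 called falls. Log2 differences below are submerged minus air on the deposited log2(TPM + 1) scale, which understates changes of low genes, and list medians are to be read beside -0.51 and list counts beside the 18.7% and 31.4% above. In bulk leaves, fewer cells of a type and less RNA per cell cannot be told apart.

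In wild type, fitted on the same genes, 4473 (23.2%) were higher and 6419 (33.3%) lower under submergence. Of the genes that rose in ein3eil1, 59.8% also rose in wild type, as did 48.2% of the wild-type rises in ein3eil1. For falls the shares were 69.2% and 65.2%. The difference of response, ein3eil1 minus wild type, was called for 35.5% of genes, more positive for 3043 (15.8%) and more negative for 3784 (19.7%). With the submerged wild-type libraries counted as 1 sample these counts were 1946 and 1918, with the lone sample assumed to vary like the other groups. Differences of response printed below for named genes are from the fit with the submerged wild-type libraries counted separately. For CTR1, NDB2, AT2G21640, WRKY75, RHL41, LOX2 and EXPA4 the alternative fits of the difference were not examined. There were 281 genes that rose in ein3eil1 and fell in wild type, and 82 that did the reverse.

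**Figure D1:**
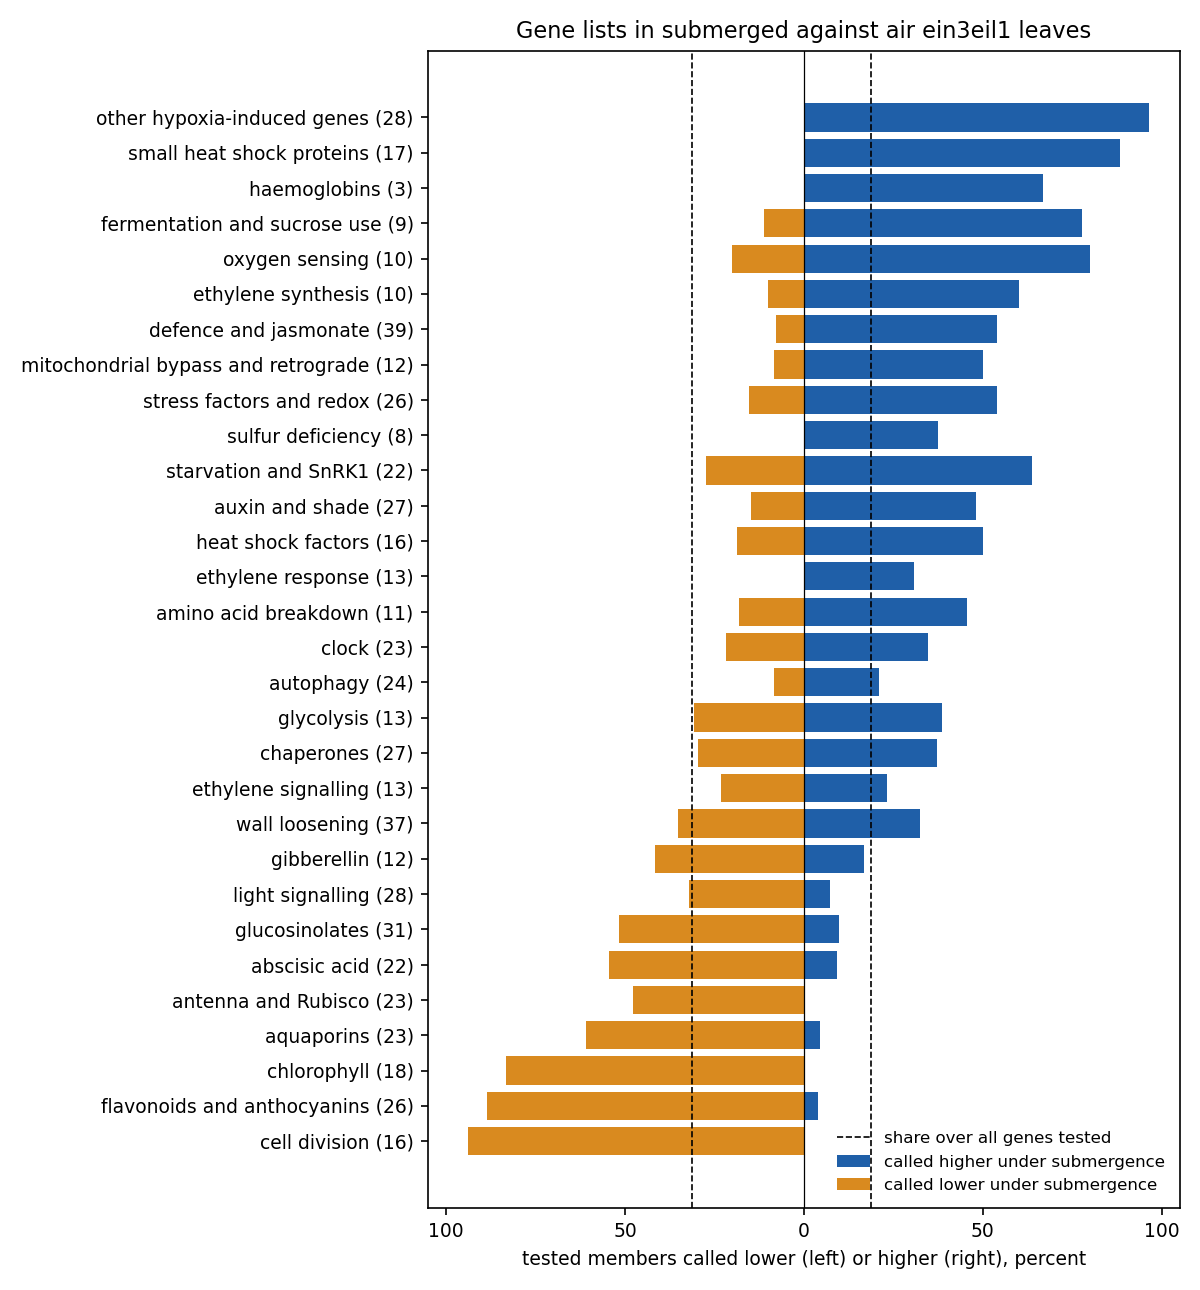
Percent of the tested members of each of 30 gene lists called higher (right) or lower (left) in submerged against air ein3eil1 leaves, with dashed lines at the shares over all 19248 genes. The hypoxia and small heat shock lists stand far to the right, and the flavonoid, chlorophyll and cell division lists far to the left.

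The 2 mutated genes were still transcribed, at lower mean levels than in wild type. EIN3 averaged 44.5 TPM in submerged and 27.5 TPM in air ein3eil1, against 54.5 and 59.7 TPM in wild type. For EIL1 these means were 10.3 and 16.6 TPM, against 67.1 and 41.0 TPM. These differences in level between the lines were not tested. EIN3 had 42.5, 49.4 and 41.6 TPM in submerged leaves, against 26.9, 27.3 and 28.3 TPM in air. All submerged libraries were above all air libraries, a log2 difference of 0.67 (SE 0.11, adjusted p = 0.00125). Wild-type EIN3 differed by -0.13 and was not called, and the difference of response was 0.80 (adjusted p = 0.000604), which did not pass with all 18 libraries of the series in the fit. EIL1 had 11.6, 6.9 and 12.5 TPM in submerged leaves, against 17.0, 16.5 and 16.1 TPM in air. Its groups did not overlap, but the log2 difference of -0.67 became -0.14 after median-ratio scaling and was not called. Wild-type EIL1 rose by 0.70, and the difference of response was -1.37 (adjusted p = 0.000598). A transcript that remains does not show whether a functional protein is made, as the alleles are not named. PHYA, the far-red light receptor gene, had 15.2, 20.1 and 13.6 TPM in submerged leaves, against 20.6, 16.3 and 15.69 TPM in air. The groups overlapped and PHYA was not called at -0.11, although median-ratio scaling alone gave a called rise of 0.43. Wild-type PHYA rose by 0.92 (difference of response -1.02, adjusted p = 0.00201).

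Most ethylene synthesis genes rose in ein3eil1, and several negative regulators of the pathway that rose in wild type were not called. Of 10 synthesis genes tested 6 rose and 1 fell. ACC synthases make the ethylene precursor ACC, and 5 of 6 rose. ACS7 had 37.0, 42.0 and 36.2 TPM in submerged leaves, against 2.28, 0.3 and 0.54 TPM in air, and ACS8 had 13.6, 18.54 and 37.2 TPM in submerged leaves, against 1.0, 0.76 and 0.83 TPM in air. Neither gene's groups overlapped, and the log2 differences were 4.39 (adjusted p = 2.90e-05) and 3.57 (adjusted p = 7.30e-05). ACS2 changed by 2.05, ACS4 by 2.75 and ACS11 by 1.75, while ACS6 at 0.30 was not called. ACC oxidases turn ACC into ethylene. ACO1 (AT2G19590) rose by 2.76, a call that leaving out any of 4 libraries, submerged replicate 1 or 2 or air replicate 2 or 3, removed. EFE, the most abundant ACC oxidase of this set, had 354, 308 and 297 TPM in submerged leaves, against 844, 979 and 699 TPM in air, and fell by 1.38 without overlap (adjusted p = 0.000235).

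Of 13 signalling genes tested 3 rose, 3 fell and 7 were not called, with a median of -0.13. Rises and falls were 23.1% each, beside 18.7% and 31.4% of all genes. ETR2, an ethylene receptor and target of the pathway, had 19.4, 10.2 and 10.5 TPM in submerged leaves, against 1.42, 0.29 and 0.92 TPM in air. It rose by 2.93 (adjusted p = 0.000132) with no overlap, beside 3.32 in wild type. The receptor gene ERS1 had 15.0, 11.1 and 15.1 TPM in submerged leaves, against 24.2, 22.9 and 21.2 TPM in air. ERS1 was not called at -0.70, against a rise of 1.35 in wild type, a difference of response of -2.04 (adjusted p = 4.23e-06). CTR1, the kinase that holds the pathway off, differed by 0.25 and was not called, against 1.92 in wild type (difference -1.67, adjusted p = 6.58e-06). EBF2 differed by -0.13, also not called, against 1.98 in wild type (difference -2.11, adjusted p = 0.000657). EIN2 fell by 1.49. XRN4 (EIN5) fell by 1.1, which did not pass without air replicate 1, and EBF1 fell by 0.96, a call lost in 5 of the 6 fits that leave out 1 library. Without air replicate 1, 1 signalling gene was lower instead of 3. Over the list, the difference of response was more positive for 3 genes (1 with all 18 libraries of the series in the fit) and more negative for 5. Among 13 ethylene response genes 4 rose, none fell and 9 were not called, with a median of -0.01. In wild type 7 rose and 1 fell, with a median of 1.22. The rises in ein3eil1 were TEM1 (0.99), RAV2 (3.08), ERF6 (1.66) and ARL (4.85), which promotes leaf growth. The 5 members listed as outputs, 4 of them tested, summed to 400 TPM in air replicate 1. They summed to 32.2 and 39.2 TPM in air replicates 2 and 3. The loose EIN3 binding letters ATGNANCT, on either strand, stood in 12.5% of all promoters of 250 bases, in 2 of 13 signalling genes, in 2 of 10 synthesis genes and in 3 of 13 response genes.

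Most hypoxia genes rose. The 4 lists of oxygen sensing, fermentation and sucrose use, haemoglobins and other hypoxia-induced genes had 10, 9, 3 and 28 tested members, of which 8, 7, 2 and 27 rose, and 2, 1, 0 and 0 fell. Their medians were 2.02, 2.58, 2.29 and 3.84. Together these lists held 2.03% ± 0.13 of all TPM in submerged ein3eil1 and 0.15% ± 0.02 in air ein3eil1, beside 2.21% ± 0.04 in submerged and 0.12% ± 0.01 in air wild type (SD, n = 3). Air replicate 1 was the highest of the 3 air libraries for 34 of the 44 called rises (77.3%), against 46.6% of all members, and its part in the fold changes was not tested beyond leaving it out, which left the 8, 7, 2 and 27 rises as they were.

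The hypoxia-responsive promoter element, which ERF-VII factors bind, was searched in a loose form on both strands: AAACCA, 3 letters of any kind, then GC. The windows were the 250 bases before each gene start, in RefSeq annotation of build TAIR10.1. A match to the loose form need not be the element itself. The loose form stood in 222 of 27443 promoters (0.81%), in 1 of 9 of the fermentation and sucrose genes and in 2 of 28 of the other hypoxia genes. It stood in none of the 10 oxygen sensing or 3 haemoglobin genes. The 2 windows shown were chosen because they hold a match, which is a description of letters and not of a bound site. Capitals mark the matches, which begin 166 bases before the ADH1 start (chr1:28975005-28975254, plus strand) and 230 and 100 bases before the AT4G10270 start (chr4:6374484-6374733, plus strand).
ADH1: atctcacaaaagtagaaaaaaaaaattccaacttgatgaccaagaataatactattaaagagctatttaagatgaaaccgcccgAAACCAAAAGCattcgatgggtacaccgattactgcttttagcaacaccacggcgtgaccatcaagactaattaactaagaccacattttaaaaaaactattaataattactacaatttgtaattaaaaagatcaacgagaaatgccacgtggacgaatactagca
AT4G10270: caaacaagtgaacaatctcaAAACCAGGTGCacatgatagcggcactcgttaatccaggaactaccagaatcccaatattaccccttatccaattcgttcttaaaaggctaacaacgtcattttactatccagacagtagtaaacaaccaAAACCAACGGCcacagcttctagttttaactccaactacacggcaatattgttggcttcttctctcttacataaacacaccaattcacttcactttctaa

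ADH1, alcohol dehydrogenase, which regenerates NAD+ by reducing acetaldehyde to ethanol, had 1077, 1381 and 873 TPM in submerged leaves, against 22.9, 9.92 and 4.26 TPM in air. Every submerged library was far above every air library, and air replicate 1 was the highest in air. The log2 difference was 6.62 (SE 0.53, adjusted p = 7.76e-05). AT4G10270, the other gene with its window shown, had 49.3, 72.4 and 70.6 TPM in submerged leaves, against 7.7, 0 and 1.61 TPM in air, and rose by 4.50 (adjusted p = 0.00241), again without overlap.

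Among the 5 ERF-VII genes 4 rose and 1 fell. ERF71 (HRE2) had 426, 216 and 384 TPM in submerged leaves, against 0.92, 0.09 and 0.24 TPM in air. It was near 0 in air and rose by 7.90 (SE 0.31, adjusted p = 3.61e-06), against 5.42 in wild type. The difference of response was 2.49 (adjusted p = 0.000386), which did not pass at a pseudocount of 0.1. ERF73 (HRE1) rose by 2.95, EBP (RAP2.3) by 3.19 and RAP2.2 by 1.09. RAP2.12, which is expressed in air and acts at the onset of hypoxia, had 76.0, 69.6 and 73.2 TPM in submerged leaves, against 180.4, 165 and 131 TPM in air, and fell by 1.1 without overlap (adjusted p = 0.000349), which did not pass without air replicate 1 or without air replicate 2. Of the 5 plant cysteine oxidase genes, AT5G15120 (PCO1) had 68.3, 62.1 and 80.1 TPM in submerged leaves, against 3.56, 0.62 and 1.48 TPM in air, and rose by 4.75. AT5G39890 (PCO2) rose by 4.14, AT2G42670 (PCO4) by 1.02 and AT3G58670 (PCO5) by 0.63. AT1G18490 (PCO3) fell by 0.91, which did not pass without air replicate 2, so that no gene of the oxygen sensing list fell in that fit.

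Pyruvate is the substrate of several fermentation enzymes. The pyruvate decarboxylase gene AT4G33070 (PDC1) had 205, 323 and 151 TPM in submerged leaves, against 3.91, 0.41 and 0.48 TPM in air, a rise of 6.64, while PDC2 at -0.13 was not called. Lactate dehydrogenase, AT4G17260, had 138, 142 and 122 TPM in submerged leaves, against 23.4, 21.5 and 18.7 TPM in air. It rose by 2.61 (adjusted p = 5.10e-06), against 0.52 in wild type (difference 2.09, adjusted p = 5.23e-06). ALAAT2, an alanine aminotransferase that moves an amino group onto pyruvate, had 149, 159 and 149.8 TPM in submerged leaves, against 17.7, 15.2 and 15.0 TPM in air. It rose by 3.18 in ein3eil1, against 0.01 in wild type, where it was not called, and the difference of response was 3.17 (adjusted p = 1.79e-07). The sucrose synthases, which cleave sucrose with less ATP cost than invertase and hexokinase, split: SUS1 rose by 2.58 and SUS4 by 1.92, and SUS3 fell by 0.86, a call lost without submerged replicate 1 or 3 or air replicate 1 or 3.

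HB1, the class 1 haemoglobin that scavenges nitric oxide, had 5810.4, 4720.0 and 7239.7 TPM in submerged leaves, against 9.55, 3.63 and 2.75 TPM in air. It was the fourth most abundant nuclear protein-coding gene of submerged ein3eil1 and rose by 10 (SE 0.39, adjusted p = 4.19e-06), against 10.14 in wild type. GLB3 rose by 2.29, and HB2, with 316 ± 72.3 TPM in submerged leaves and 217 ± 54.7 TPM in air, was not called. Among other hypoxia genes, the calmodulin-like gene CML38 had 2667, 2618 and 3211 TPM in submerged leaves, against 136, 201 and 166 TPM in air, a rise of 4.08. LBD41, a transcription factor gene, rose by 4.84, RVE2 by 3.6, and AT3G10040 (HRA1), which restrains ERF-VII activity, by 2.54. RBOHD, an NADPH oxidase, rose by 1.08, and the water and lactic acid channel gene NIP2;1 by 6.35. The 2 loci AT4G27450 (HUP54) and AT1G33055 rose by 7.47 and 7.10. AT2G17850 had 546, 684 and 479 TPM in submerged leaves, against 17.0, 0 and 0 TPM in air, so that it was listed at 0 in 2 air libraries. AT3G24420 (DLK2) was the member not called, with 12.3 ± 3.78 TPM in submerged leaves and 25.6 ± 3.29 TPM in air.

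**Figure D2:**
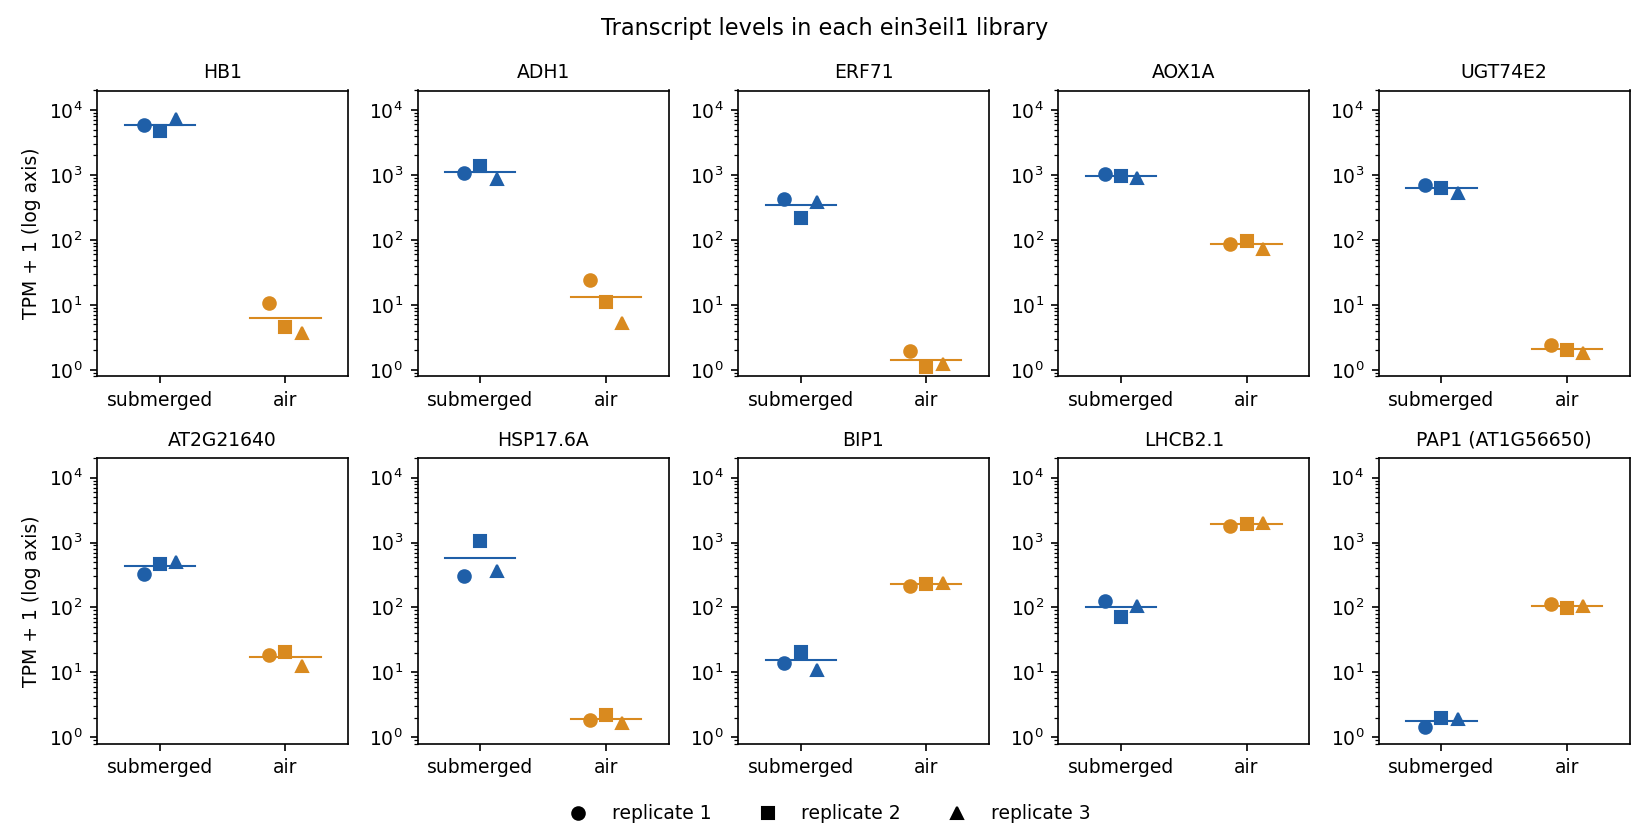
TPM + 1 on a log axis for 10 genes in the 3 submerged (left) and 3 air (right) ein3eil1 libraries, with a line at each mean and a marker shape per replicate. HB1, ADH1, ERF71, AOX1A, UGT74E2, AT2G21640 and HSP17.6A are higher under submergence in every library, and BIP1, LHCB2.1 and PAP1 (AT1G56650) lower in every library.

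Glycolysis did not move as a block. Of 13 genes tested 5 rose and 4 fell, with a median of -0.33, and the falls numbered 2 without air replicate 2. The cytosolic glyceraldehyde phosphate dehydrogenase GAPC1 had 1161, 1338 and 848 TPM in submerged leaves, against 446, 430.2 and 392 TPM in air. It rose by 1.38 (adjusted p = 0.000486) without overlap and fell by 2.3 in wild type, a difference of response of 3.67 (adjusted p = 2.35e-07). The phosphofructokinase gene PFK7 had 105.4, 152 and 75.2 TPM in submerged leaves, against 36.2, 38.6 and 36.7 TPM in air, which rose by 1.5 and fell by 1.48 in wild type (difference 2.97, adjusted p = 1.46e-05). PFK6 rose by 2.00, PFK3 by 1.05 and the enolase gene LOS2 by 0.82. HXK1, a hexokinase that also senses glucose, fell by 2.77, and PFK1, PFK4 and PFK5 fell by 0.94, 1.32 and 0.99. The PFK1 and PFK5 calls were lost without air replicate 2, and that of PFK5 also without submerged replicate 1 or 3 or air replicate 1. Compared with wild type, 6 members responded more positively and 2 more negatively.

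Carbon starvation genes numbered 14 rises and 6 falls among 22, with a median of 1.43. SnRK1 kinases and the bZIP factors they act on switch on catabolism when sugar runs low. SEN1 (AT4G35770), also called DIN1, had 604, 257 and 577 TPM in submerged leaves, against 7.79, 7.08 and 3.23 TPM in air. DIN10 had 539, 612 and 431 TPM in submerged leaves, against 17.2, 15.6 and 7.45 TPM in air. Both were higher in every submerged library, by 6.06 and 5.26. ASN1, asparagine synthetase, rose by 3.73, BT2 by 6.17, and the bZIP genes bZIP1 and BZO2H3 (bZIP63) by 2.77 and 3.2. The kinase genes themselves fell, KIN10 by 1.57 and KIN11 by 1.08. So did GBF6 (bZIP11), by 2.40, and the trehalose phosphate synthase genes TPS1 and TPS5, by 1.72 and 3.87, whereas TPS8, TPS9, TPS10 (AT1G60140) and TPS11 rose by 1.91, 1.91, 1.01 and 0.63.

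Most amino acid breakdown genes responded more negatively than in wild type. Of 11 genes 5 rose (3 without air replicate 2) and 2 fell (1 when any library other than air replicate 3 was left out), and the difference of response was more negative for 8 and more positive for 1, or for 5 and 0 both with submerged wild type as 1 sample and with all 18 libraries in the fit. BCAT-2, which starts branched-chain amino acid breakdown, had 39.3, 48.6 and 46.0 TPM in submerged leaves, against 81.0, 77.0 and 64.4 TPM in air. It was not called at -0.72, against a rise of 1.34 in wild type (difference -2.06, adjusted p = 6.69e-06). The glutamate dehydrogenase genes GDH1 and GDH2 rose by 1.52 and 2.44. Among 24 autophagy genes 5 rose (20.8%, near the 18.7% of all genes) and 2 fell, with a median of -0.09. The count turned with the scale: 13 were higher on the median-ratio scale alone and 8 lower on the deposited scale alone. In wild type 12 autophagy genes rose and 6 fell. ATG8E, which coats the growing autophagosome, had 699.5, 832 and 856 TPM in submerged leaves, against 69.1, 57.6 and 59.8 TPM in air, and rose by 3.65 without overlap. The cargo receptor gene NBR1 rose by 0.82, and the initiating kinase gene AT3G61960 (ATG1A) fell by 1.82.

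The alternative oxidase genes AOX1A and AOX1D rose in ein3eil1 and fell in wild type. Alternative oxidases pass electrons from ubiquinol to oxygen without pumping protons, alternative dehydrogenases bypass complex I, and NAC transcription factors released from the endoplasmic reticulum carry signals from stressed mitochondria to the nucleus. Of 12 genes tested 6 rose and 1 fell (2 without submerged replicate 1) in ein3eil1, with a median of 1.56, while none rose and 8 fell in wild type, with a median of -1.15. The difference of response was more positive for 9 of 12 genes and more negative for none, also with submerged wild type as 1 sample (1 more negative without submerged replicate 1). AOX1A had 1051, 967 and 896 TPM in submerged leaves, against 87.0, 95.9 and 71.8 TPM in air. All submerged libraries were far above all air libraries, by 3.51 (SE 0.15, adjusted p = 3.65e-06). In wild type AOX1A fell by 3.39, with 4.84 ± 0.73 TPM in submerged and 60.1 ± 7.37 TPM in air wild type (SD, n = 3), and the difference of response was 6.89 (adjusted p = 5.84e-10). AOX1D had 846, 1263 and 810.1 TPM in submerged leaves, against 23.1, 21.9 and 13.7 TPM in air, a rise of 5.57 (adjusted p = 4.17e-06), against -2.04 in wild type and with a difference of 7.61 (adjusted p = 3.59e-07). NDB2, an outer-facing alternative NADH dehydrogenase, had 21.3, 40.9 and 24.3 TPM in submerged leaves, against 20.1, 25.5 and 23.7 TPM in air. NDB2 was not called in ein3eil1 at 0.26 and fell by 3.66 in wild type (difference 3.92, adjusted p = 2.01e-06).

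Targets of the retrograde pathway rose with the oxidases in ein3eil1. UGT74E2, a glucosyltransferase of indole-3-butyric acid, had 696, 636 and 533 TPM in submerged leaves, against 1.38, 1.03 and 0.82 TPM in air. Its rise of 8.23 (SE 0.15, adjusted p = 8.02e-07) was the third largest of the comparison, and wild type, at 0.26, was not called (difference 7.97, adjusted p = 5.38e-10). AT2G21640 (UPOX), a marker gene of oxidative stress in mitochondria, had 323, 469.8 and 495 TPM in submerged leaves, against 17.5, 19.7 and 11.7 TPM in air. It rose by 4.64 with no overlap, against -0.15 in wild type (difference 4.79, adjusted p = 2.67e-07). BCS1 (OM66), an outer mitochondrial membrane protein gene, rose by 3.36, and NAC13 (NAC013) by 2.87. NAC017, a NAC factor that is regulated at the protein level, was not called at -0.35.

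The mitochondrial dysfunction motif, the letters that NAC013 and NAC017 bind, was searched on both strands as CTTG, 5 letters of any kind, then CANG, which reads N in place of its A-or-C letter. This motif was added after values had been seen. It stood in 1.75% of all promoters of 250 bases, in 4 of the 12 alternative respiration and retrograde genes (33.3%) and in 4 of the 17 small heat shock protein genes. The window of AT2G21640 (chr2:9254128-9254377, plus strand) was chosen because it holds a match, in capitals, which begins 51 bases before the start and reads as the motif on both strands.
AT2G21640: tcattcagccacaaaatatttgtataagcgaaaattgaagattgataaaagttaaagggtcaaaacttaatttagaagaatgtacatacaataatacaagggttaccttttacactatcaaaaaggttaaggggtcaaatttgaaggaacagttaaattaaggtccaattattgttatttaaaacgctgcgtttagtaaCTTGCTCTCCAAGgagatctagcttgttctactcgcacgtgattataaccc

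**Figure D3:**
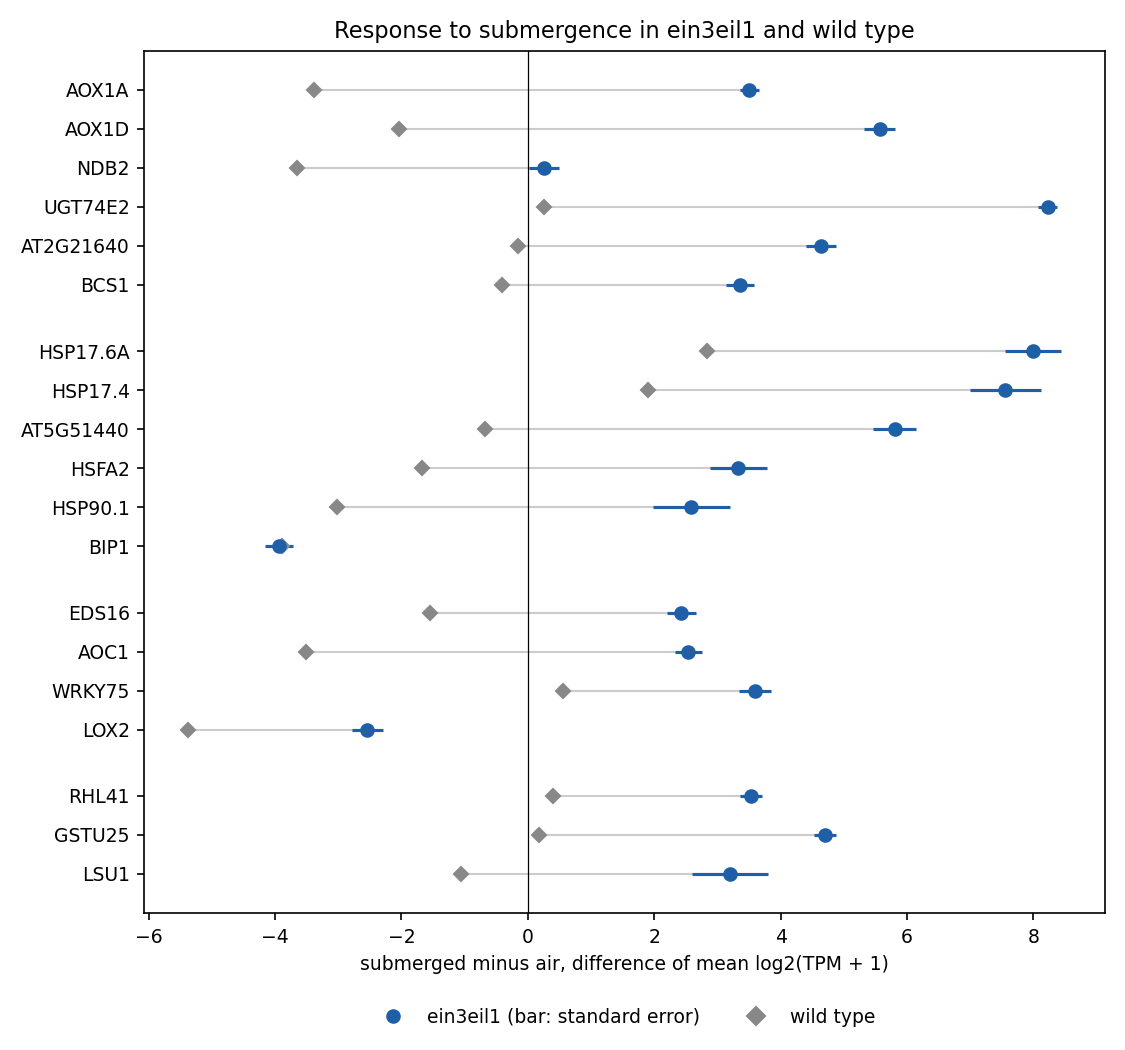
Submerged minus air differences of log2(TPM + 1) in ein3eil1 (circles, with SE bars) and wild type (diamonds) for 19 genes. For most genes the ein3eil1 circle lies to the right of the wild-type diamond, by 7.61 for AOX1D and 7.97 for UGT74E2, and for BIP1 the marks coincide.

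Small heat shock proteins, which hold unfolding proteins in solution, rose in 15 of 17 cases in ein3eil1 and fell in none. Their median was 5.92, against 0.05 in wild type, where 8 rose and 2 fell. The difference of response was more positive for 15 members and more negative for none (14 with submerged wild type as 1 sample). HSP17.6A had 305, 1035 and 360.2 TPM in submerged leaves, against 0.86, 1.19 and 0.69 TPM in air. Its groups did not overlap and it rose by 8.0 (SE 0.45, adjusted p = 1.64e-05), against 2.83 in wild type (difference 5.16, adjusted p = 3.94e-05). HSP17.4 had 140.3, 652 and 172 TPM in submerged leaves, against 0.5, 0.34 and 0.18 TPM in air, a rise of 7.56 with a difference of 5.66 from wild type (adjusted p = 0.00027). The organelle members rose with the cytosolic ones. AT5G51440, a mitochondrial small heat shock protein gene, had 254, 564 and 227 TPM in submerged leaves, against 4.31, 6.04 and 4.03 TPM in air, and rose by 5.80 (difference 6.49, adjusted p = 1.60e-06). HSP23.6-MITO rose by 6.92 and the plastid HSP21 by 6.12. The 2 members not called were AT5G47600 at -1.03 and AT2G19310 at -0.91.

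Submerged replicate 2 carried the highest heat shock values. It was the highest of the 3 submerged libraries for 30 of 33 called rises in the heat shock lists (90.9%), against 50.3% of all members. The summed share of small heat shock protein genes ranged from 0.193% to 0.595% of TPM in submerged ein3eil1 and from 0.016% to 0.022% in air. Without submerged replicate 2, 15 of the 17 members still rose and 1 fell. The heat shock element core GAANNTTC, searched on both strands, stood in 9.55% of all promoters of 250 bases and in 4 of 17 of these genes. The HSP17.4 window (chr3:16984868-16985117, minus strand), shown because it holds matches, has them in capitals from 99 and 18 bases before the start.
HSP17.4: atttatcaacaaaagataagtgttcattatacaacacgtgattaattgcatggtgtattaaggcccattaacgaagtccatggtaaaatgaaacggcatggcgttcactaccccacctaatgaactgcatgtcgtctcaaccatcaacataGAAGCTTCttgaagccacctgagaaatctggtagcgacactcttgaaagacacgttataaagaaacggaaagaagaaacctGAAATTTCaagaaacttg

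Of 16 heat shock factor genes 8 rose and 3 fell. HSFA2, a factor that sustains the heat response, had 27.6, 81.4 and 22.6 TPM in submerged leaves, against 2.53, 2.78 and 3.08 TPM in air. It rose by 3.33 (adjusted p = 0.000569) without overlap and fell by 1.68 in wild type (difference 5.01, adjusted p = 3.84e-05). HSFA7A rose by 3.38, HSF4 (HSFB1) by 1.54 and HSF A4A by 1.3, whereas HSF3 (HSFA1B), HSFB4 and HSFC1 fell by 1.44, 1.81 and 2.08.

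Of 27 larger chaperones 10 rose (37.0%) and 8 fell (29.6%, near the 31.4% of all genes), with a median of -0.38. In wild type 1 rose and 23 fell, and the difference of response was more positive for 19 and more negative for none (15 with submerged wild type as 1 sample). HSP90.1, the heat-inducible HSP90, had 138, 559 and 104 TPM in submerged leaves, against 33.8, 36.2 and 28.1 TPM in air. It rose by 2.59 without overlap and fell by 3.03 in wild type (difference 5.61, adjusted p = 0.000186). HSP101, a disaggregase, rose by 2.73, Hsp70b by 3.09, mtHsc70-1 of mitochondria by 1.54 and the co-chaperone gene Hop3 by 3.27. The endoplasmic reticulum chaperones went the other way. BIP1 had 13.1, 19.8 and 9.98 TPM in submerged leaves, against 210.5, 227 and 238 TPM in air. BIP1 and BIP2 each fell by 3.94, close to the wild-type values of -3.90 and -3.93, and BIP3 fell by 2.69. Outside the endoplasmic reticulum, HSP81-3 (HSP90.3) fell by 2.57 and HSC70-1 by 1.27.

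**Figure D4:**
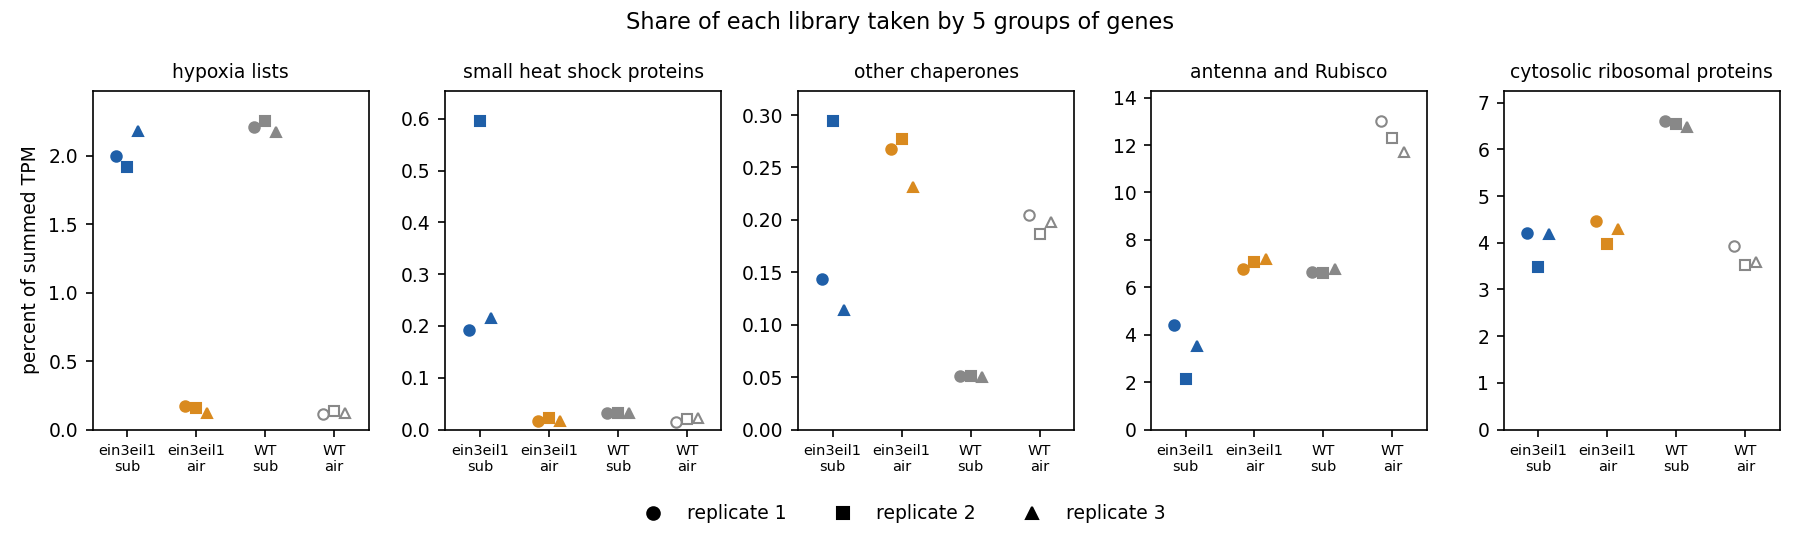
Percent of summed TPM held by 5 gene lists in each of the 12 ein3eil1 and wild-type libraries. The hypoxia share is near 2% in all submerged libraries, the small heat shock share is highest in submerged ein3eil1 and peaks in replicate 2 at 0.595%, and the antenna and Rubisco share is lowest in that same library at 2.13%.

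Of 39 defence and jasmonate genes 21 rose and 3 fell (5 without air replicate 1), with a median of 1.00. In wild type 7 rose and 20 fell, with a median of -0.89, and the difference of response was more positive for 28 and more negative for none (23 and 0 with submerged wild type as 1 sample, and 1 more negative without ein3eil1 submerged replicate 3 or air replicate 1). EDS16 (ICS1), which makes most stress-induced salicylic acid, had 273, 399.6 and 251 TPM in submerged leaves, against 43.3, 55.0 and 70.0 TPM in air. It rose by 2.43 (adjusted p = 7.60e-05) with no overlap and fell by 1.55 in wild type (difference 3.98, adjusted p = 8.87e-07). AOC1, allene oxide cyclase of jasmonate synthesis, had 750.2, 843 and 608 TPM in submerged leaves, against 148, 139 and 93.0 TPM in air. It rose by 2.54 and fell by 3.52 in wild type, with 37.0 ± 0.393 TPM in submerged and 437 ± 74.5 TPM in air wild type, a difference of 6.06 (adjusted p = 3.84e-08). Upstream of AOC1 in the same pathway, LOX2 had 147, 97.2 and 81.5 TPM in submerged leaves, against 516, 591 and 774 TPM in air. LOX2 fell by 2.54 in ein3eil1 and by 5.38 in wild type (difference 2.84, adjusted p = 3.18e-05). JAZ genes encode repressors of jasmonate signalling: JAZ1, JAZ5, JAZ7 and JAZ8 rose by 2.02, 1.89, 3.35 and 3.75, while MYC2, the transcription factor they repress, fell by 1.24, a call lost without submerged replicate 1 or 3 or air replicate 2 or 3. WRKY75 had 222, 452 and 339 TPM in submerged leaves, against 29.7, 25.3 and 23.2 TPM in air, a rise of 3.59 against 0.55 in wild type (difference 3.04, adjusted p = 9.44e-06). WRKY22, WRKY40, WRKY45 and WRKY25 rose by 3.92, 3.16, 2.96 and 2.16, and EDS1, a hub of immune signalling, fell by 1.28. The pathogenesis-related genes PR1, BGL2 (PR2) and PR5 were not called, with 478 ± 68.7 TPM in submerged leaves and 1004 ± 316 TPM in air for PR1.

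Zinc-finger stress factors and glutathione transferases rose as well. Of 26 stress and redox genes 14 rose and 4 fell, with a median of 1.14, and the difference of response was more positive for 16 and more negative for 3 (13 and 0 with submerged wild type as 1 sample). The negative differences numbered 1 when any library other than ein3eil1 submerged replicate 1 or 3 or air replicate 3 was left out. RHL41 (ZAT12) had 798, 878 and 626 TPM in submerged leaves, against 55.0, 70.8 and 69.1 TPM in air. It rose by 3.54 (adjusted p = 5.10e-06) and, at 0.39, was not called in wild type (difference 3.14, adjusted p = 0.000163). AT3G46080 (ZAT8), ZAT7 and ZAT11 rose by 6.79, 4.87 and 4.46, and DREB2A by 2.57. GSTU25, a tau-class glutathione transferase gene, had 30.4, 29.2 and 41.6 TPM in submerged leaves, against 0.3, 0.42 and 0.25 TPM in air, and rose by 4.70 (difference 4.52, adjusted p = 1.38e-06). GSTU24 rose by 4.55 and the abundant GSTU19 by 2.71. Of 9 scavenger genes tested 3 fell, near the 31.4% of all genes, while 1 rose and 5 were not called. The hydrogen peroxide scavengers APX1, CAT2 (AT4G35090) and CAT3 (AT1G20620) fell by 1.69, 1.64 and 1.51. Of 8 genes of sulfur deficiency 3 rose and none fell in ein3eil1, against 1 and 7 in wild type, and 7 differences of response were positive (6 with submerged wild type as 1 sample). LSU1 had 150.5, 226 and 98.3 TPM in submerged leaves, against 5.71, 20.1 and 30.2 TPM in air. It rose by 3.2 and fell by 1.05 in wild type (difference 4.25, adjusted p = 0.00139).

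Many photosynthesis genes and most pigment genes fell. Of 23 antenna and Rubisco genes 11 fell and none rose, with a median of -1.26, and the list held 3.34% ± 1.14 of TPM in submerged and 7.02% ± 0.22 in air ein3eil1. LHCB2.2, a light-harvesting chlorophyll protein of photosystem II, had 79.8, 37.6 and 62.4 TPM in submerged leaves, against 1347, 1377 and 1365 TPM in air. All submerged libraries were far below air, by -4.55 in log2 (SE 0.25, adjusted p = 8.25e-06). LHCB2.1 fell by 4.27, LHCB2.3 by 4.13 and LHCB6 by 2.73, and RCA, Rubisco activase, fell by 1.86. LHB1B2 fell by 1.75, a call lost without submerged replicate 3, air replicate 1 or air replicate 2. The most abundant members were not called: RBCS1A had 8177, 4238 and 6662 TPM in submerged leaves, against 8477, 8322 and 9137 TPM in air, and CAB1 had 8529, 3462 and 6268 TPM in submerged leaves, against 8879, 8811 and 9182 TPM in air. Submerged replicate 2 was the lowest for both, and without it the list still had 11 falls. Chlorophyll genes fell in 15 of 18 cases, with a median of -1.88. GUN4 and GUN5 (CHLH), of the magnesium chelatase step, fell by 2.46 and 2.35, and POR C, a protochlorophyllide reductase, by 3.26. Breakdown genes fell too, NYE1 (SGR1) by 1.79 and ACD1 (PAO) by 2.01.

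Of 26 flavonoid and anthocyanin genes 23 fell and 1 rose, with a median of -2.61. PAP1 (AT1G56650), the MYB factor that drives anthocyanin synthesis, had 0.44, 0.96 and 0.94 TPM in submerged leaves, against 111, 96.2 and 103 TPM in air. It was at or under 1 TPM in all submerged libraries, a log2 difference of -5.89 (adjusted p = 1.08e-06). GSTF12, needed to carry anthocyanins to the vacuole, had 1.92, 3.04 and 1.09 TPM in submerged leaves, against 273, 244 and 163 TPM in air, and fell most of all named genes, by 6.26. AT4G14090, an anthocyanin glucosyltransferase gene, had 1.31, 1.6 and 0.52 TPM in submerged leaves, against 158, 137 and 89.5 TPM in air. UF3GT, another sugar transferase, had 0.69, 0.57 and 0.19 TPM in submerged leaves, against 112, 102 and 56.5 TPM in air. Both were lower in every submerged library. TT4, chalcone synthase, fell by 2.22, TT7 by 4.26 and LDOX by 4.21. C4H, an early step shared with lignin, was the rise, at 1.02.

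Glucosinolate genes fell in 16 of 31 cases and rose in 3 (1 without air replicate 1 or 3), with a median of -1.30, against 25 falls and 4 rises in wild type. Relative to wild type 13 responses were more positive and none more negative (9 and 0 with submerged wild type as 1 sample, and 2 more negative without ein3eil1 submerged replicate 3 or wild-type air replicate 2). BCAT4, which starts methionine chain elongation, had 57.8, 66.5 and 37.1 TPM in submerged leaves, against 419.8, 323 and 159 TPM in air. It fell by 2.39 in ein3eil1 and by 5.79 in wild type (difference 3.40, adjusted p = 0.000155). CYP79F1 and IPMI2 fell by 3.73 and 3.43, and the regulator MYB29 by 3.17, whereas MYB51, of the indole branch, rose by 1.5.

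Several cell wall loosening genes were among the large rises. Xyloglucan endotransglucosylase/hydrolases (XTH) cut and rejoin xyloglucan chains, and expansins loosen the wall at acid pH. Of 37 genes tested 12 rose (32.4%, against 18.7% of all genes) and 13 fell (35.1%, near the 31.4% of all genes), with a median of -0.30. XTH18 had 550.2, 278 and 429 TPM in submerged leaves, against 0.53, 0.45 and 1.37 TPM in air. It rose by 7.86 (adjusted p = 2.57e-06), against 3.93 in wild type (difference 3.93, adjusted p = 0.000409). XTR6 (XTH23) had 1210.4, 1053 and 791 TPM in submerged leaves, against 7.96, 4.61 and 2.44 TPM in air, a rise of 7.49 (difference 4.21, adjusted p = 1.98e-05). XTH24 and TCH4 (XTH22) rose by 3.35 and 4.91. Among the falls, EXPA4 had 8.55, 3.36 and 4.8 TPM in submerged leaves, against 68.6, 52.6 and 64.0 TPM in air. It fell by 3.32 with no overlap, against a change of -0.94 in wild type that was not called (difference -2.38, adjusted p = 0.000157). EXPA6 fell by 3.6, EXPB3 by 3.63, XTH6 by 3.55 and XTH32 by 4.17, and EXPA1 was a rising expansin, at 1.63. Against wild type, 8 members differed positively and 15 negatively, or 5 and 6 with submerged wild type as 1 sample, and 8 were negative with all 18 libraries in the fit.

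**Figure D5:**
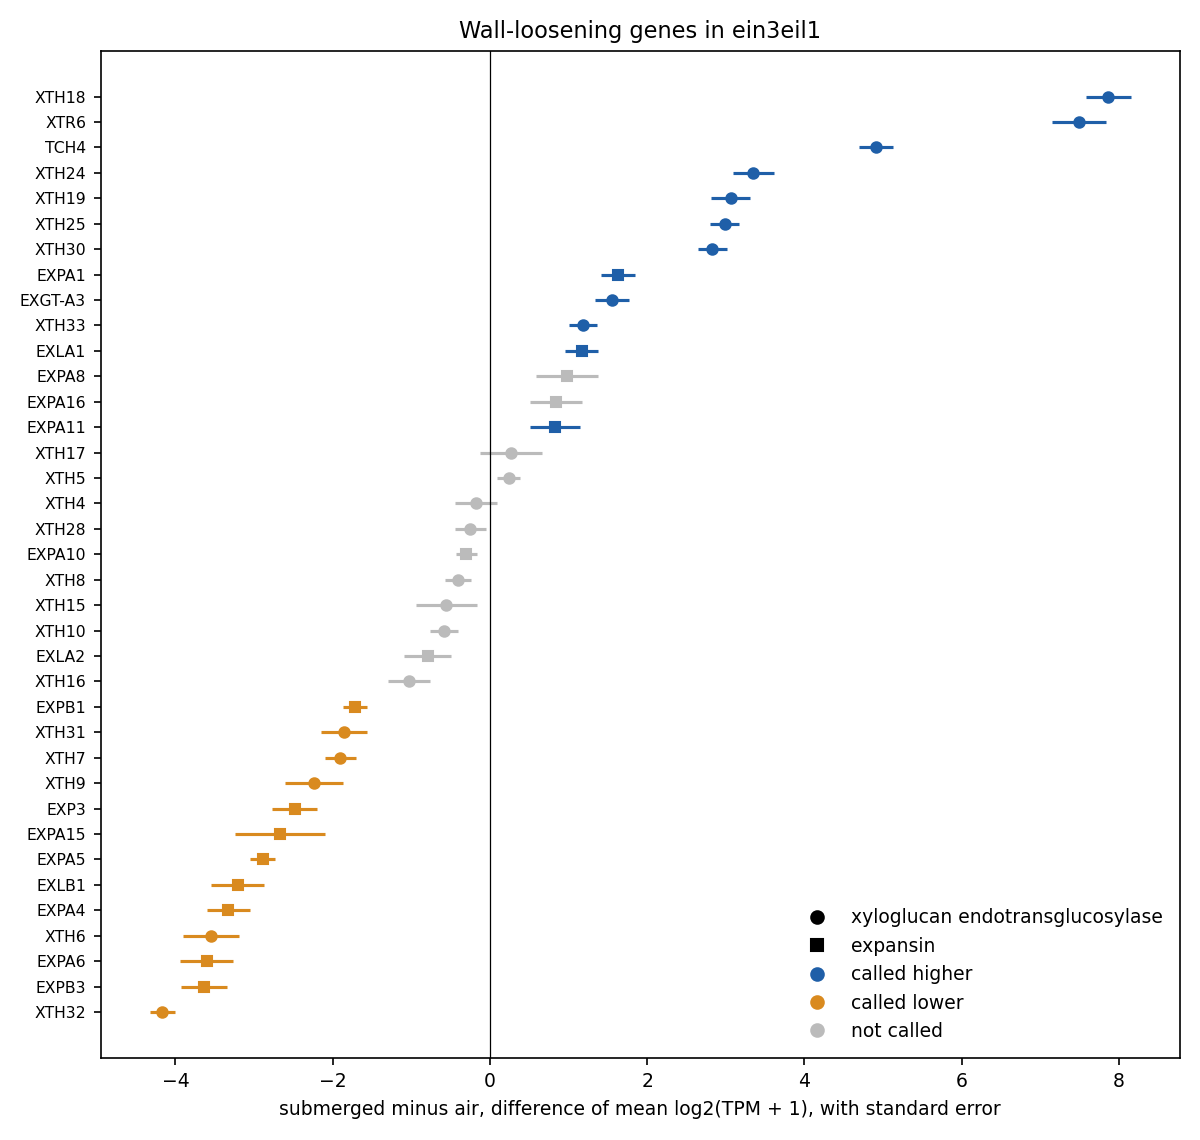
Submerged minus air difference of log2(TPM + 1) with SE for 37 wall genes in ein3eil1, XTH genes as circles and expansins as squares. XTH18 and XTR6 lie at the top at 7.86 and 7.49, and XTH32 at the bottom at -4.17.

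Of 27 auxin and shade genes 13 rose and 4 fell (2 without submerged replicate 3, air replicate 1 or air replicate 2), with a median of 0.52. BRU6 (GH3.2), which conjugates auxin to amino acids, had 27.9, 99.7 and 59.2 TPM in submerged leaves, against 2.57, 1.89 and 1.95 TPM in air. It rose by 4.16 with no overlap. GH3.3 rose by 2.14, the auxin synthesis gene YUC5 by 2.21, and the homeobox gene HAT1 by 1.48. AXR3 (IAA17) fell by 1.39. Of 12 gibberellin genes 2 rose, GA2OX2 (1.84) and GA2OX6 (2.75), which inactivate the hormone, and 5 fell (3 with all 18 libraries in the fit), among them the DELLA genes RGL2 and GAI by 2.79 and 1.25. Abscisic acid genes fell in 12 of 22 cases and rose in 2. ABA1, zeaxanthin epoxidase, had 16.5, 12.3 and 11.4 TPM in submerged leaves, against 166, 164 and 145 TPM in air, and fell by 3.49, and CYP707A3, which breaks the hormone down, rose by 2.39. The response gene LTI78 (RD29A) fell by 4.00. Aquaporin genes fell in 14 of 23 cases and rose in 1, NIP2;1, with a median of -1.41. PIP1B (PIP1;2) had 123, 78.2 and 96.7 TPM in submerged leaves, against 611, 639 and 450.1 TPM in air, and PIP2A (PIP2;1) had 131, 98.8 and 103 TPM in submerged leaves, against 610.4, 561 and 434 TPM in air. Both plasma membrane water channel genes were lower in every submerged library, by 2.51 and 2.26.

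Light signalling genes showed 2 rises (1 without air replicate 1 or 2) and 9 falls among 28 (32.1%, near the 31.4% of all genes), and the count turned with the scale: 7 were higher on the median-ratio scale alone and 18 lower on the deposited scale alone. FHL, a shuttle of phytochrome A into the nucleus, rose by 1.74. SPA1, SPA3 and COP1, of the ubiquitin ligase that degrades light-response factors, fell by 2.01, 2.15 and 1.60, and PIF4 by 1.70. Among 23 clock genes 8 rose and 5 fell. TOC1 and BOA rose by 1.79 and 2.72, and PRR9 and GI fell by 3.43 and 2.48. Of the 8 members listed as evening genes 3 rose, 2 fell and 3 were not called. CCA1 and LHY, the morning factors, were not called at -0.81 and -0.56. Time of day of the harvests is not given by the labels.

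Cell division genes fell in 15 of 16 cases in ein3eil1, with a median of -1.61, against none called in either direction in wild type. Without submerged replicate 2 and air replicate 1 together, 9 fell. Their levels were low: CDKB2;1, a kinase of mitosis, had 4.26, 2.28 and 2.0 TPM in submerged leaves, against 17.2, 7.85 and 16.4 TPM in air, and CYC1BAT (CYCB1;2) had 1.78, 0.72 and 0.6 TPM in submerged leaves, against 11.8, 4.59 and 9.9 TPM in air. Every submerged value lay below every air value in both. CDKB2;1 fell by 1.92 and CYC1BAT by 2.22. Relative to wild type the response was more negative for 5 members, between 1 and 13 when single libraries were left out, and for none with submerged wild type as 1 sample. Markers of cell types other than mesophyll were detected. Of 4 guard cell, 4 epidermal and 5 vascular markers 2, 3 and 2 fell and none rose. Of the vascular set 4 fell without air replicate 3, and 1 without any one of submerged replicates 2 and 3 and air replicates 1 and 2. PDF1 of the epidermis had 12.8 ± 9.0 TPM in submerged leaves and 92.9 ± 49.0 TPM in air, a fall that did not pass without submerged replicate 2, air replicate 1 or air replicate 3. Of 3 root markers tested 1 rose (2 without air replicate 1) and 1 fell. None of 4 flower markers was called, and all 4 were at their highest in air replicate 3, with 16.6 TPM for AP3 there against 0.22 to 5.96 TPM in the other ein3eil1 libraries. The part of cell composition in the falls above was not tested.

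Cytosolic ribosomal protein genes, 252 tested, held 3.96% ± 0.41 of TPM in submerged and 4.25% ± 0.25 in air ein3eil1, beside 6.54% ± 0.06 in submerged and 3.69% ± 0.22 in air wild type. In ein3eil1 28 rose and 21 fell (12 without submerged replicate 2 and air replicate 1 together), where the median-ratio scale alone had 109 higher and the deposited scale alone 86 lower. In wild type 170 rose and 14 fell, and the difference of response was more negative for 163 and more positive for 3, or for 111 and 2 with submerged wild type as 1 sample and for 58 and 1 with all 18 libraries in the fit.

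Some of the largest changes lay outside these lists. AT5G24640 had 734, 541 and 1040.1 TPM in submerged leaves, against 0.16, 0.56 and 0.16 TPM in air. It rose by 9.19 (SE 0.25, adjusted p = 1.13e-06) and by 1.61 in wild type (difference 7.58, adjusted p = 1.51e-07). GSTU9 (AT5G62480), a glutathione transferase gene, had 1367, 1771 and 1869 TPM in submerged leaves, against 11.5, 5.98 and 5.98 TPM in air, a rise of 7.61 (difference 6.99, adjusted p = 8.87e-07). AT5G55150 had 134, 199 and 254 TPM in submerged leaves, against 0, 0 and 0 TPM in air, and is listed at 0 in every air library, so no fold is given. AT3G29970 had 421, 577 and 745 TPM in submerged leaves, against 5.95, 0 and 0 TPM in air, listed at 0 in 2 air libraries. HR4, of the RPW8-like defence family, was the fifth most abundant nuclear protein-coding gene of submerged leaves, with 5432, 5059.9 and 5603 TPM in submerged leaves, against 664, 1023 and 1149 TPM in air. Its rise was 2.54 (adjusted p = 6.19e-05). Among falls, LBD1 had 0, 0 and 0 TPM in submerged leaves, against 30.3, 34.3 and 31.9 TPM in air, and is listed at 0 in every submerged library. TBL26 had 0.57, 1.19 and 0.92 TPM in submerged leaves, against 55.4, 63.1 and 89.0 TPM in air, and SQP1 had 0.77, 1.2 and 1.1 TPM in submerged leaves, against 70.0, 66.9 and 66.2 TPM in air. Both were below every air value in every submerged library, by 5.20 and 5.09. AT5G10760 fell by 4.58, TLL1 by 4.56, AT5G45950 by 4.70 and RLP41 by 4.65, the last listed at 0 in 2 submerged libraries. PSBR, a photosystem II subunit, was the most abundant nuclear protein-coding gene of both groups, with 9998, 4510.4 and 10721 TPM in submerged leaves, against 9661, 11700.1 and 12723 TPM in air, and was not called. AT3G22235, among the 5 most abundant in air, had 3278, 5521 and 3089 TPM in submerged leaves, against 2816, 5429.8 and 10924 TPM in air, with overlapping groups and no call.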

How the data were processed

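Polyadenylated RNA was captured on oligo(dT) beads and copied with random primers, per the labels' protocols. Strandedness is not given there, so reads of genes that overlap in antisense cannot be told apart. The authors deposited a table of values per gene that are taken as TPM: they have decimals and sum to between 996194 and 998170 in the ein3eil1 libraries. The submitters' processing notes name fastp, cutadapt, HISAT2, DESeq2 and build TAIR10, with no versions. TPM keep no depth, so no counting interval is given.

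Values were transformed as log2(TPM + 1) and fitted with limma 3.58.1 (trend, robust) in R 4.3.3. The 6 ein3eil1 libraries gave the submergence comparison, and an interaction over 12 libraries gave the difference of response. Calls needed a Benjamini-Hochberg adjusted p under 0.05, two-sided and over all 19248 members, in the same direction on the deposited and the median-ratio scale. Printed fold changes and adjusted p-values are those of the deposited scale. A single-gene exact test of 3 against 3 cannot go below p = 0.1. Of the members 20 have values identical to another gene and are not told apart from it.

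On simulated data with 200 changed genes among 19248, the comparison recovered 7.46%, 50.7% and 90.9% of genes changed 1.5-, 2- and 4-fold, and 14 of 113 calls (12.4%) were false. For the difference of response these were 16.4%, 55.2% and 87.9%, with 25 of 131 calls false (19.1%). The 0.05 threshold was therefore not held in either simulation. Each simulation was a single draw with 200 changed genes, whereas 50.2% of members were called in the comparison itself. It also took the SD of each group's replicates as the true spread. Whether these false shares hold for the calls above was not tested.

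Named genes were EIN3, EIL1, PHYA, ADH1 and HB1, the 12 largest rises and 12 largest falls of called protein-coding genes of the nucleus that average 2 TPM or more and have no overlap between groups, the 5 most abundant of each group, up to 4 called members of each list by size, and members named for their role. The members and lists were chosen with earlier results of these data known. Promoter windows are 250 bases before the RefSeq start in TAIR10.1, and 22 symbols turned into dates in the deposited table were read from RefSeq. Alternatives were other scales, pseudocounts, filters, fits over all 18 libraries, a replicate block, single libraries left out and, added after seeing the data, submerged replicate 2 and air replicate 1 left out together and submerged wild type as 1 sample.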

Additional observations from a re-analysis of the deposited data

Results flagged for a closer look

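The results singled out here are differences between the ein3eil1 and wild-type responses to submergence, each tested as an interaction in limma. In all, 3043 of 19248 genes (15.8%) responded more positively in ein3eil1 and 3784 (19.7%) more negatively. List counts below are to be read beside these shares.

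By list, more positive and more negative differences numbered 9 and 0 among 12 alternative respiration and retrograde genes and 15 and 0 among 17 small heat shock proteins. They numbered 19 and 0 among 27 chaperones, 28 and 0 among 39 defence and jasmonate genes and 16 and 3 among 26 stress factors and redox genes. The 8 sulfur deficiency genes had 7 and 0, and the 31 glucosinolate genes 13 and 0. The other lists had 3 and 5 among 13 for ethylene signalling, 6 and 2 among 13 for glycolysis and 1 and 8 among 11 for amino acid breakdown. Wall loosening had 8 and 15 among 37, cell division 0 and 5 among 16 and cytosolic ribosomal proteins 3 and 163 among 252. The 5 for cell division ranged from 1 to 13 when single libraries were left out. With all 18 libraries of the series in the fit the counts were 1 and 58 for cytosolic ribosomal proteins, 0 and 5 for amino acid breakdown, 0 and 3 for cell division, and 8 negative for wall loosening.

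Among single genes, the positive differences in log2 were 6.89 for AOX1A, 7.61 for AOX1D, 3.92 for NDB2, 4.79 for AT2G21640 and 7.97 for UGT74E2. Heat shock genes gave 5.16 for HSP17.6A, 5.66 for HSP17.4, 6.49 for AT5G51440, 5.61 for HSP90.1 and 5.01 for HSFA2. Hormone, defence and stress genes gave 6.06 for AOC1, 2.84 for LOX2, 3.98 for EDS16, 3.04 for WRKY75, 4.25 for LSU1, 4.52 for GSTU25 and 3.14 for RHL41. Metabolic and hypoxia genes gave 3.17 for ALAAT2, 2.09 for AT4G17260, 2.49 for ERF71, 3.67 for GAPC1, 2.97 for PFK7 and 3.40 for BCAT4. The others were 0.80 for EIN3, 3.93 for XTH18, 4.21 for XTR6, 7.58 for AT5G24640 and 6.99 for GSTU9. Negative differences were -1.37 for EIL1, -1.02 for PHYA, -2.04 for ERS1, -1.67 for CTR1, -2.11 for EBF2, -2.38 for EXPA4 and -2.06 for BCAT-2. The narrow spread of the submerged wild-type libraries enters all of these tests.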

How the results depend on the processing

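The count of rises in ein3eil1, 3607, moved to 6328 on the median-ratio scale alone and to 2107 when at least a 2-fold change was asked for, and the count of falls, 6050, to 9996 on the deposited scale alone. The count of negative differences of response, 3784, moved to 2046 with all 18 libraries in the fit. With submerged wild type as 1 sample the positive differences numbered 1946 and the negative 1918, beside 3111 rises and 4124 falls called in wild type. Leaving out 1 library at a time gave 3101 to 3608 rises, 5151 to 5947 falls, 2686 to 3125 positive and 3127 to 3734 negative differences, and leaving out submerged replicate 2 and air replicate 1 together gave 3210, 5098, 2869 and 2947. PHYA turned to a rise of 0.43 on the median-ratio scale alone, as did ERF5 (0.54, and 0.37 after quantile normalisation), AT3G54500 (0.51) and ATAUX2-11 (0.48), none of which was called by the rule on both scales. At a pseudocount of 0.1 the difference of response turned positive for UF3GT (0.15, not called) and PAP1 (AT1G56650) (2.05). Of the gene values tried under the alternatives in ein3eil1, 5063 kept their side of the threshold and 88 no longer passed. Another 68 newly passed in the same direction and 5 in the opposite direction. The 5063 include uncalled genes that changed direction, such as PDC2, at -0.51 to 0.14 with single libraries left out. The cause of these changes was not tested.

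Same-numbered submerged and air libraries had correlations of deviations of 0.12, 0.09 and 0.04, not all above 0.1, and submerged replicate 3 correlated best with air replicate 2 (0.07), so the numbers were not taken as pairs. With a replicate block 3521 genes rose and 5822 fell, and 2864 and 3386 differences of response were called.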

Other observations

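Small nuclear RNA genes, which encode parts of the spliceosome, rose in 13 of 16 tested cases in ein3eil1 and fell in none (1 without submerged replicate 2), with a median of 4.18. They held 0.483% ± 0.05 of TPM in submerged and 0.031% ± 0.0056 in air ein3eil1, and 0.546% ± 0.042 in submerged and 0.0383% ± 0.015 in air wild type (SD, n = 3). No difference of response was called among them in limma, and at most 1 in each direction when a wild-type air library was left out. RNA was captured on oligo(dT) beads, so these values cover only captured RNA. Whether total small nuclear RNA changed was not tested.

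Mitochondrion-encoded genes rose in 22 of 46 tested cases in ein3eil1 (14 without submerged replicate 2) and in 1 in wild type, where 4 fell. The difference of response was more positive for 15 of them, or for 6 with submerged wild type as 1 sample. Of 50 chloroplast-encoded genes 2 rose (5 without submerged replicate 2, 1 without submerged replicate 3) and 4 fell. None of these chloroplast genes was called in either direction with all 18 libraries in the fit. For both organelles too, oligo(dT) capture means that changes in total RNA were not tested. Of 46 core histone genes 10 rose (21.7%, near the 18.7% of all genes) and 4 fell (2 without air replicate 1 or 3). Proteasome genes rose in 1 of 37 and fell in 5.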
